A study of Mus musculus with 21 samples.

Results

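H3K36me3 peak lists of wild-type C2C12 cells kept for 1 day under methionine restriction (2 libraries) were compared with those of cells kept for 1 day in control medium (2 libraries). These 4 libraries, taken by their labels, are among 20 H3K36me3 libraries of the series that have a peak list. C2C12 is an established mouse myoblast line whose cells leave the cell cycle and fuse into muscle fibres in culture. The series also holds wild-type libraries of day 0, 2 in number, and of day 5 in both media, 2 each, and libraries of 2 Setd2 knockout lines. All 4 day 1 libraries carry no deletion, and all received Drosophila chromatin with an antibody to a Drosophila histone as a spike-in. The labels give no methionine concentration and do not say whether replicates were separate cultures, so the p-values measure the spread between these libraries, which may be technical.

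H3K36me3 (histone H3 with 3 methyl groups on lysine 36) is laid down behind elongating RNA polymerase II by the methyltransferase SETD2, so the mark covers transcribed gene bodies and leaves their starts bare. Like every cellular methylation it uses S-adenosylmethionine, which cells make from methionine. In muscle precursors the mark moves onto muscle genes as they are switched on and leaves genes that are switched off.

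A peak list holds positions of enrichment and no read counts, so the depth of the libraries is unknown and the measure used was cover, the percent of a gene body that lies inside peaks. The 19190 protein-coding genes measured are 2 kb or longer and lie on chromosomes 1 to 19 and X. Of these, 9514 genes had a mean cover of at least 5% over the 10 wild-type libraries and were tested; the others include many genes with no peak. Among markers of 8 cell types, the 7 myoblast or muscle markers had summed covers of 503 and 501 in control medium and 248 and 217 under restriction, and none of them was at 0 in all 4 libraries. Their part in the differences below was not tested, and in bulk chromatin fewer cells carrying the mark on a gene and less of the mark per cell cannot be told apart. All 4 markers each of adipocytes, leukocytes, endothelial, epithelial and pluripotent cells were at 0 in all 4 libraries, as were 3 of 4 fibroblast markers and 2 of 4 neuronal markers. At day 1 in control medium the knockout lines, measured the same way, had a mean cover of 4.01% and 0.0179% over the tested genes, and under restriction 0.0606% and 0.0012%. Setd2, the gene of the H3K36 methyltransferase (chr9:110532500-110618633), was itself covered to 62.4% and 69.9% in the wild-type control libraries and to 52.8% and 45.6% in the restricted ones. It was thus among the 59.6% of tested genes with both restricted libraries below both control libraries. The groups did not overlap and the difference of −17.0 ± 5.21 points (SE) passed the test (limma, adjusted p = 0.0329), but the call held in only 11 of 20 alternative settings, where the adjusted p ran from 0.0177 to 0.713.

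The restricted lists were shorter in covered length and slightly shorter in number of peaks. The control lists held 79690 and 75936 peaks over 140 and 150 Mb, and the restricted lists 74942 and 71835 peaks over 128 and 110 Mb. Mean peak number was thus 5.69% lower and mean covered length 17.9% lower, from 145 ± 7.07 to 119 ± 13.2 Mb (SD, n = 2; exact permutation test, two-sided, p = 0.333, the smallest that 2 against 2 libraries allow). Peaks of at least 5 kb numbered 5847 and 6688 in control medium and 5305 and 4013 under restriction. Peaks of at least 20 kb numbered 329 and 510 in control medium and 228 and 121 under restriction. Width was read in each list separately, so a domain that is trimmed or broken leaves its width class whole. The median width moved less, from 803 and 853 bp to 799 and 767 bp. Covered bases lay almost wholly in genes in all 4 libraries, 95.1% and 95.2% in control medium and 96.2% and 96.5% under restriction. Genes with at least 50% cover, called marked below, numbered 4264 and 4541 in control medium and 3053 and 2417 under restriction (exact permutation p = 0.333). In every one of these counts the restricted libraries lay below the control libraries, apart from the share of bases in genes, where they lay above.

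The 5′ edge of the marked domain lay farther into the gene under restriction. It was read on 497 tested genes of at least 20 kb that overlap no other gene, with no neighbour within 5 kb before the start or 10 kb after the end. Within 20 kb of the gene start, cover reached 50% of its maximum in that window at 3.58 kb in both control libraries, and at 5.98 and 6.29 kb in the restricted libraries. The window maximum was 41.3% and 44.6% in control medium and 40.1% and 34.7% under restriction, and cover was higher still near the gene end in all 4 libraries. The shift was 2.56 kb, from 3.58 ± 0.0027 to 6.14 ± 0.22 kb (SD, n = 2; exact permutation p = 0.333). At day 0 the distance was 2.91 and 2.82 kb. Near the start the libraries differed most in proportion: at 3.25 kb the mean share of bases inside peaks was 18.2% and 20.6% in control medium and 8.65% and 6.01% under restriction. At 19.25 kb it was 40.0% and 43.2% against 39.6% and 33.4%, and the first restricted library had come close to the first control library. Past the gene end, where the mark runs on over the termination zone, cover at 1.25 kb was 31.2% and 33.5% in control medium and 26.8% and 18.6% under restriction. When all lists were shortened to one covered length, by keeping peaks from the highest fold downward until each list reached the 110 Mb of the shortest wild-type list, the 5′ distance was 5.26 and 5.51 kb in control medium and 6.98 and 6.29 kb under restriction, a shift of 1.25 kb.

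**Figure D1:**
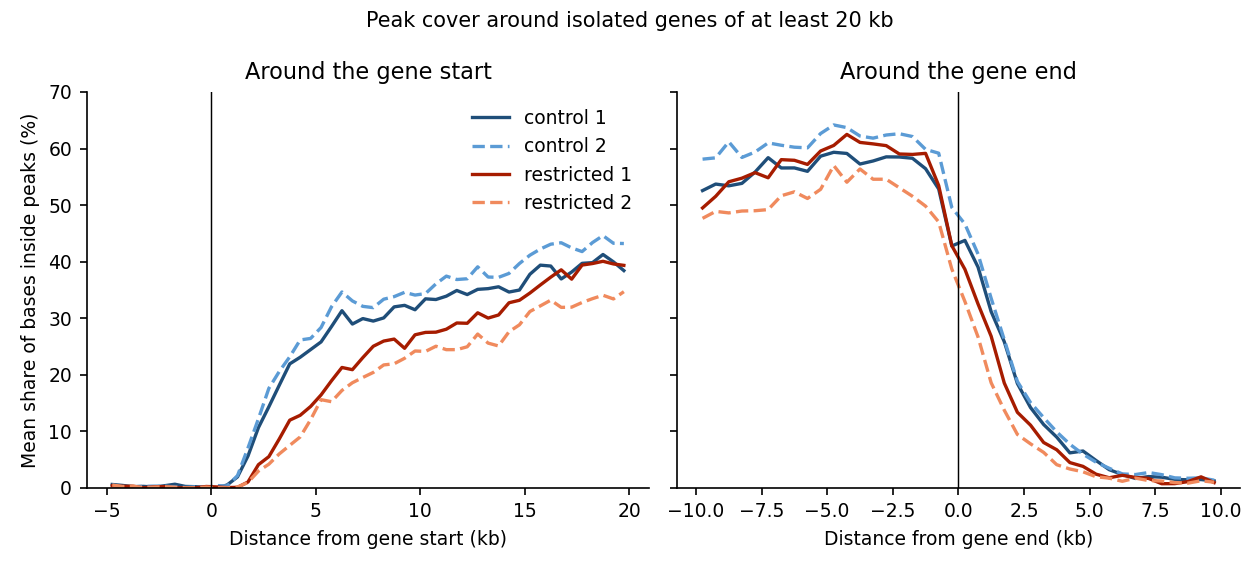
Mean share of bases inside peaks (%) by distance from the gene start (left) and from the gene end (right), in kb, over 497 isolated genes of at least 20 kb; each line is 1 day 1 library. Both restricted lines rise later after the start than both control lines, reaching 50% of their maximum within 20 kb of the start at 5.98 and 6.29 kb against 3.58 kb; cover is higher again near the gene end.

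At the level of single genes, 3422 of 9514 tested genes, or 36%, fell under restriction and 226, or 2.38%, rose (limma on percent cover in the 10 wild-type libraries, Benjamini-Hochberg adjusted p under 0.05). The genes that fell had a median cover of 62.6% in control medium and 30.0% under restriction, and those that rose went from a median of 16.6% to 36.3%. In 190 of the genes that rose, or 84.1%, both control libraries lay below both day 0 libraries, beside 49.3% of all tested genes. These genes were called from the same control libraries, so this share is a description only. Of the genes that fell, 293 had no peak in either restricted library, and 79 of these had more than 50% cover in control medium. Replicates differed by a median of 3.77 points in control medium and 4.86 points under restriction, against a median drop of 23.6 points among the genes that fell. Marked in both control libraries were 4044 genes, of which 1288 were marked in neither restricted library, and 51 genes showed the reverse. The count of genes that rose was sensitive to single libraries: it was 71 without control replicate 1, 116 without control replicate 2 and 83 without restricted replicate 1. The count of genes that fell was 2178 without restricted replicate 2.

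The direction of small differences depended on the scale, because the median tested gene differed by −7.99 points and every list-wide shift enters the cover of each gene. In lists of one covered length 1614 of 8329 genes, or 19.4%, fell and 677, or 8.13%, rose, around a median of −3.52 points. After centring each library on its median, the median difference was 7.20 points, and 1245 genes were lower and 3518 higher. After quantile normalisation 1537 were lower and 2255 higher. Of the 3212 genes that fell and could be tested in lists of one length, 1570 fell there too. After quantile normalisation 1536 of the 3422 were lower and 0 were higher, and all 226 genes that rose were higher. In lists of one length 160 of these 226 rose.

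**Figure D2:**
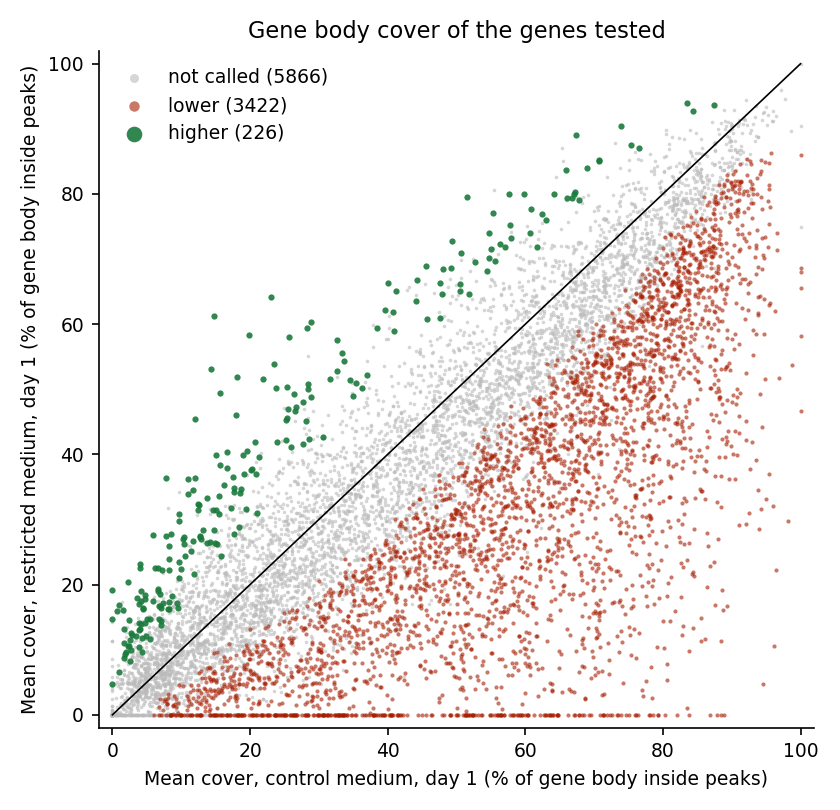
Mean cover (% of the gene body inside peaks) of each of the 9514 tested genes at day 1, control medium on the horizontal and restricted medium on the vertical axis; red, 3422 genes called lower; green, 226 called higher; grey, not called; the line marks equal cover. Called lower genes reach down to a row at 0, and called higher genes lie mostly at low control cover.

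The share of a gene that lost the mark varied with gene length. Among tested genes of 2 to 5 kb, 61.5% fell and 1 of 904 rose; their median cover was 49.1% and 48.6% in control medium and 13.2% and 8.36% under restriction. Genes of 5 to 10 kb fell in 52.3% of cases, those of 10 to 20 kb in 39.6%, those of 20 to 50 kb in 29.0%, those of 50 to 100 kb in 22.4%, and those over 100 kb in 20.8%. The share that rose went the other way, from 0.3% at 5 to 10 kb to 1.71%, 3.21%, 4.56% and 3.22% in the longer classes. In points the median difference shrank from −27.2 in the shortest class to −1.98 in the longest. In bases it grew, from a median of −0.916 kb to −3.03 kb. Genes that fell had a median length of 14.9 kb, all tested genes 22.6 kb, and genes that rose 41.9 kb. In lists of one length the median difference was still −27.7 points at 2 to 5 kb and −13.1 points at 5 to 10 kb, while it was 1.55 points at 50 to 100 kb and 2.06 points over 100 kb.

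**Figure D3:**
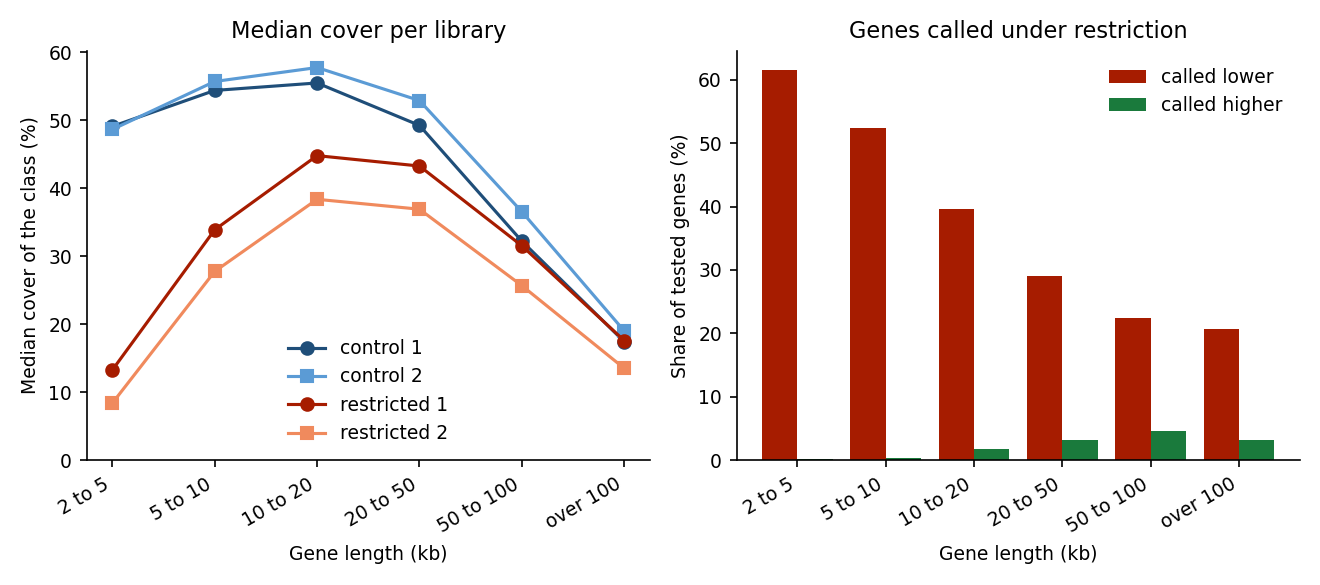
Left, median cover (%) of tested genes per length class in each day 1 library; right, percent of tested genes of the class called lower (red) or higher (green). The gap between control and restricted libraries is widest at 2 to 5 kb and narrows with length, and the called lower share goes from 61.5% to 20.8%.

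Both ends of the gene body took part. Gene bodies were split in 3 equal parts, using the strand of 7711 tested genes. In the 5′ part 1426 of 5270 genes fell (27.1%) and 34 rose (0.645%). In the 3′ part 1746 of 7480 fell (23.3%) and 135 rose (1.8%). With only the 4 day 1 libraries fitted, 1117 fell in the 5′ part and 666 in the 3′ part. In lists of one length 567 fell in the 5′ part and 927 in the 3′ part. Without control replicate 1, 990 fell in the 3′ part. Without control replicate 2 the counts were 903 and 947, and without restricted replicate 2 the 5′ count was 772. In genes of 2 to 5 kb the median difference was −21.4 points in the 5′ part and −40.6 points in the 3′ part. The order of these medians turned in longer genes: at 10 to 20 kb the 5′ part differed by −13.1 points and the 3′ part by −7.66, and at 20 to 50 kb by −8.22 and −4.30. The parts were filtered separately, so their genes differ. Within the same genes the 5′ minus the 3′ difference had a median of 30.0 points at 2 to 5 kb. It was −1.96 at 10 to 20 kb and −2.70 at 20 to 50 kb, so the turn was small. At 10 to 20 kb 125 of 1700 genes were called lower in this contrast and 117 higher. In genes of 2 to 5 kb cover increased along the gene body: in the last of 10 equal parts it averaged 72.8% and 73.7% in control medium and 34.9% and 28.5% under restriction, in the fifth 48.8% and 48.1% against 13.5% and 10.3%, and in the first 7.67% and 6.33% against 3.88% and 2.81%.

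Lost and gained territory differed in grain. Bases inside peaks of both control libraries and of neither restricted library made up 21.3 Mb in 51939 regions, 17.9% of the 119 Mb shared by the controls. The reverse held for 5.05 Mb in 22117 regions, 5.63% of the 89.6 Mb shared by the restricted libraries. Replicates were not closer to each other throughout. Of the bases of restricted replicate 1, 69.7% lay inside peaks of restricted replicate 2, and 76.0% and 80.2% inside those of the control libraries. For restricted replicate 2 the shares were 81.5% in the other restricted library and 79.3% and 83.4% in the controls. Control libraries held 84.9% and 79.2% of their bases in each other. Lost regions were up to 12.5 kb long and 49 reached 5 kb, whereas the longest gained region was 2.86 kb. The longest lost region, chr10:81407609-81420141, lay in Nfic, a nuclear factor I gene. Others lay in Heyl, a Notch target (chr4:123240134-123248167, 8.03 kb), in Myh9, non-muscle myosin (chr15:77799153-77807124, 7.97 kb), and in Runx1 (chr16:92621973-92629217, 7.24 kb). Among the 5 longest gained regions, 2 lay in Atr, the gene of a DNA damage checkpoint kinase (chr9:95927150-95929168 and chr9:95920762-95922648, 2.02 and 1.89 kb). These regions were singled out by length after their values were known. Control peaks that met no restricted peak, 24.9% and 26.4% of their lists, were narrow and low: their median width was 482 and 499 bp and their median fold enrichment, the authors' own value, 2.64 and 2.60, against 1035 and 1143 bp and 3.07 and 2.99 for the other control peaks. The same held for restricted peaks that met no control peak, 17.3% and 13.5% of their lists. Their median width was 434 and 417 bp and their fold 2.62 and 2.61, against 981 and 895 bp and 2.89 and 2.85.

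The gene lists described next group genes by pathway, and each is given by its counts and its median beside all tested genes (36% lower, 2.38% higher, median −7.99 points). Under centring and quantile normalisation many lists with medians near that of all genes change the sign of most of their calls, so for them only the position relative to all genes is read.

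**Figure D4:**
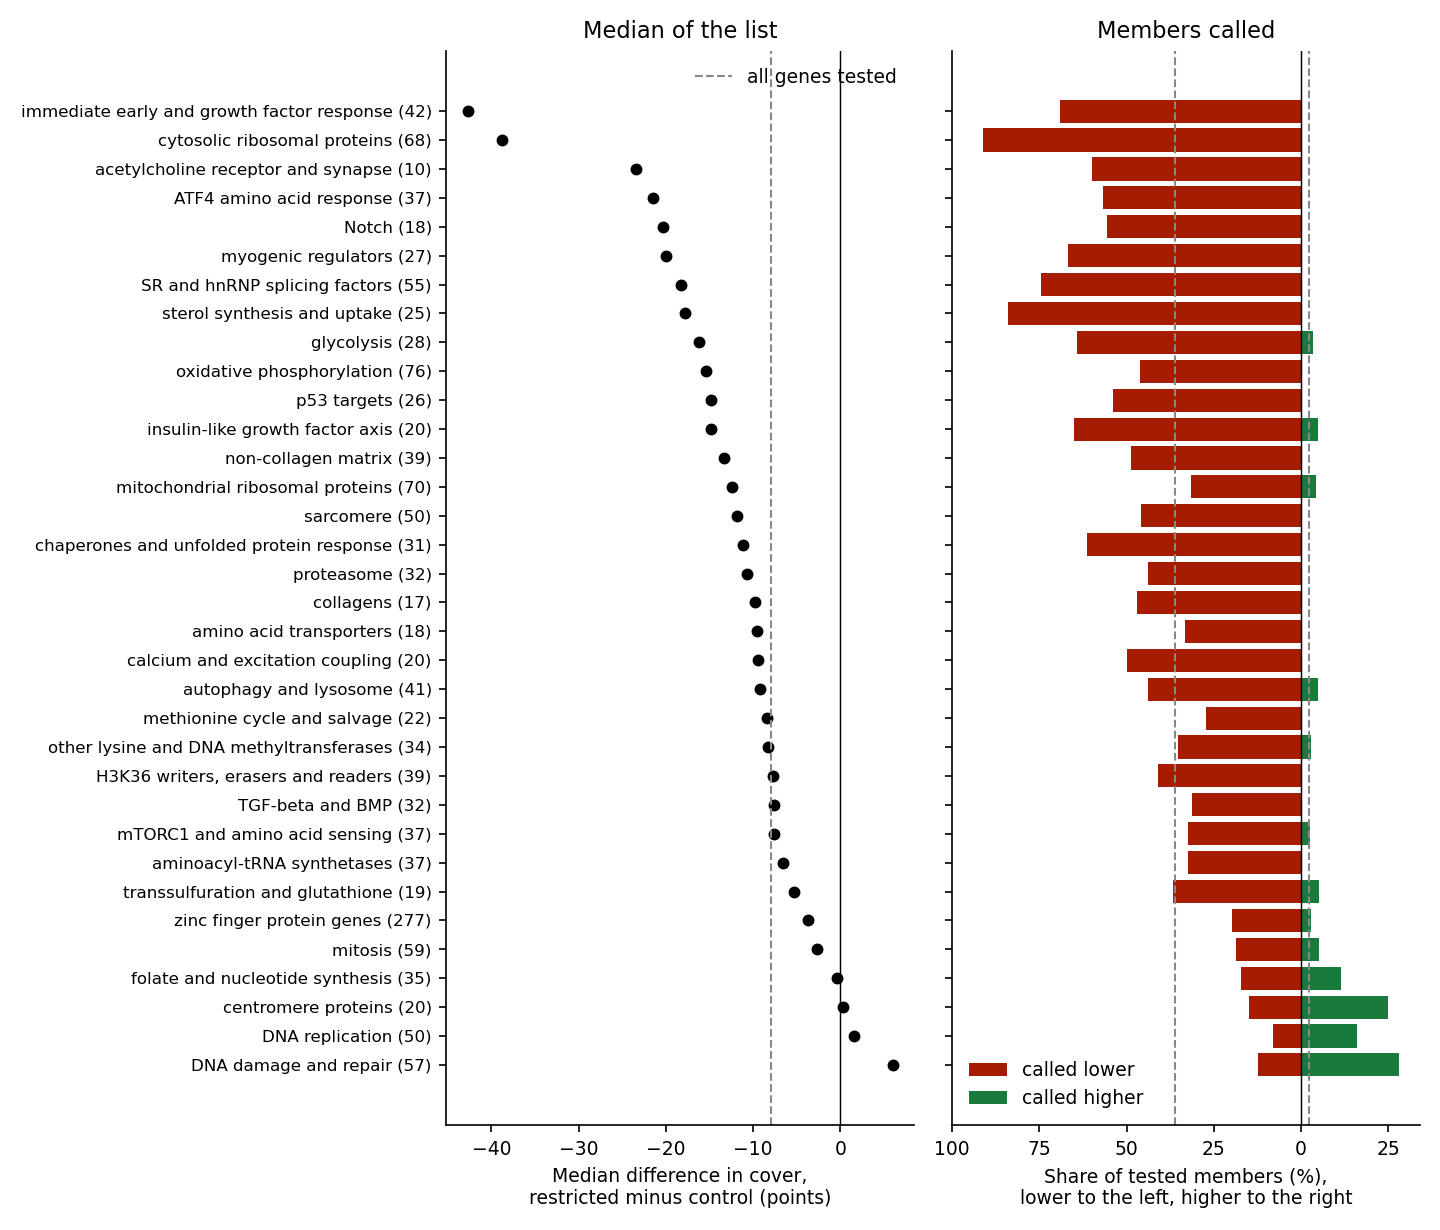
Left, median difference in cover (points, restricted minus control) of the tested members of each of 34 gene lists, number tested in brackets, with the median of all tested genes dashed; right, percent of members called lower (red, to the left) and higher (green, to the right), with the shares of all tested genes dashed. Immediate early and ribosomal protein genes lie lowest, at −42.7 and −38.7 points, and DNA damage and repair genes highest, at 5.99 points.

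Immediate early and growth factor response genes, which are short and are induced within minutes by serum or mitogens, had the lowest median of all lists. Of 42 tested members, of 48 measured, 29 fell and 0 rose, with a median of −42.7 points. Their median cover was 61.1% and 62.3% in control medium and 10.4% and 0% under restriction. Btg1, an antiproliferative gene (chr10:96617001-96622813), was covered to 78.9% and 85.2% in control medium and was listed at 0 in both restricted libraries (difference −82.0 ± 4.75 points, SE; limma adjusted p = 3.09e-05). The members of the list have a median length of 5.14 kb. Of all tested genes, 61.5% of those of 2 to 5 kb and 52.3% of those of 5 to 10 kb fell. Outside this list, Ccnd1, cyclin D1, which couples growth factors to the cell cycle, went from 82.5% and 82.3% to 27.1% and 27.4% (limma adjusted p = 4.97e-05).

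Cytosolic ribosomal protein genes were the most uniform list. Of 68 tested members 62 fell and 0 rose, 91.2% beside 61.5% of tested genes of 2 to 5 kb, the members' own length being 3.45 kb in the median. Median cover was 74.5% and 75.6% in control medium and 36.9% and 24.4% under restriction. Rps9 and Rps12, of the small ribosomal subunit, were covered to 80.6% and 87.0%, and to 81.3% and 79.3%, in control medium, and both were listed at 0 in both restricted libraries. Rps12 has 23 annotated pseudogene copies and 11.2% of its body overlaps another gene, so its peaks are uncertain. The list had 53 lower and 0 higher members in lists of one length, 44 and 0 after centring and 43 and 0 after quantile normalisation. Mitochondrial ribosomal protein genes, 8.14 kb long in the median, had a median difference of −12.4 points. Of those tested 31.4% fell, beside 52.3% of tested genes of 5 to 10 kb. Mitochondrial ribosomal protein genes were nearer the background, with 22 of 70 lower and 3 higher; 10 were lower without control replicate 2 and 12 without restricted replicate 2, and at most 1 was higher when any single day 1 library was left out. Among the 3 was Mrpl46, covered to 41.2% and 35.7% in control medium and 58.4% and 60.3% under restriction (limma adjusted p = 0.011; called in 16 of 20 alternatives).

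Splicing factors of the SR and hnRNP families, sterol genes and glycolytic genes also lay below the median of all genes. Of 55 tested SR and hnRNP genes 41 fell and 0 rose (median −18.2 points), and 26 fell without control replicate 2. Srsf2, an SR protein, was covered to 61.9% and 63.5% in control medium and 0% and 7.81% under restriction; 38.8% of its body overlaps another gene. Of 25 sterol genes 21 fell and 0 rose (median −17.8 points). In lists of one length 10 of 24 fell, and after centring 9 were lower and 3 higher. Fdps, Msmo1 and Hmgcs1, enzymes of the mevalonate and cholesterol pathway, had 87.8% to 93.2% cover in the control libraries and 42.0% to 52.6% in the restricted ones. Of 28 glycolytic genes 18 fell and 1 rose (median −16.2 points). Gapdh, a glycolytic dehydrogenase, went from 77.8% and 76.0% to 0% and 7.58%, and Slc2a1, the glucose transporter GLUT1, from 80.03% and 90.8% to 35.7% and 33.7%. The member that rose was Pdk4, a kinase that holds back pyruvate oxidation, from 27.2% and 30.5% to 59.7% and 60.8% (difference 31.4 ± 4.73 points, SE; limma adjusted p = 0.00131, called in 19 of 20 alternatives). At day 0 Pdk4 had been covered to 89.2% and 78.0%.

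Genes of the amino acid response, which ATF4 drives when amino acids are short, stood below the background. Of 37 tested members 21 fell and 0 rose, with a median of −21.5 points. In lists of one length 14 of 33 fell (median −12.5 points). After centring 12 were lower and 6 higher, and after quantile normalisation 13 and 3. The median control cover of the list was 63.6%, and 47.0% of all tested genes at 50 to 75% control cover fell. Ddit4, an inhibitor of mTORC1 (chr10:59949675-59951770), was covered to 76.9% and 75.0% in control medium and was listed at 0 in both restricted libraries (limma adjusted p = 3.29e-05). Chac1, a glutathione-degrading enzyme, went from 68.0% and 73.7% to 20.7% and 0%. Atf4 itself was listed at 0 in every wild-type library and was not tested. Amino acid transporters (6 of 18 lower, 0 higher), mTORC1 and amino acid sensing genes (12 of 37 lower, 1 higher; 6, 5 and 8 lower without control replicate 1, control replicate 2 and restricted replicate 2) and aminoacyl-tRNA synthetases (12 of 37 lower, 0 higher) were close to the background. The transporter Slc7a1 went from 56.0% and 60.3% to 30.2% and 21.8%, but in lists of one length its difference was −13.0 points (limma adjusted p = 0.192, over all its alternatives 0.000543 to 0.192).

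The methionine cycle and salvage genes lay close to the median of all genes. Of 22 tested members, of 31 measured, 6 fell and 0 rose, 27.3% beside the 36% of all genes, with a median of −8.43 points. Mat2a, the methionine adenosyltransferase that makes S-adenosylmethionine in most tissues, was covered to 83.6% and 84.1% in control medium and 73.2% and 52.9% under restriction (difference −20.8 ± 5.48 points, SE; limma adjusted p = 0.0176). Its restricted replicates differed by about as much as the groups did, and the call held in 15 of 19 alternatives (adjusted p from 0.000309 to 0.303). Mtap, which starts the salvage of methionine from methylthioadenosine, went from 76.9% and 84.4% to 53.7% and 37.0% (limma adjusted p = 0.002). Writers, erasers and readers of H3K36 methylation had 16 of 39 members lower and 0 higher (median −7.72 points). Without control replicate 1, control replicate 2 or restricted replicate 2 the lower members were 8, 7 and 8. Hnrnpl, which binds SETD2, went from 75.6% and 75.9% to 39.6% and 40.2%, and Morf4l1, a chromodomain reader of the mark, from 73.6% and 76.7% to 44.0% and 36.2%. Other lysine and DNA methyltransferase genes had 12 of 34 members lower and 1 higher, and 6, 6 and 5 lower with 0 higher without those libraries. After centring, the methionine cycle list had 2 lower and 9 higher members and the H3K36 list 4 and 14, so the direction of most of their calls depended on the scale.

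Regulators of the muscle programme were among the genes with the largest drops. Of 27 tested myogenic regulators 18 fell and 0 rose (median −19.99 points). In lists of one length 12 of 21 fell, and after centring 11 were lower and 4 higher. Median cover of the list was 51.9% and 49.1% in control medium and 5.13% and 3.31% under restriction. Myod1, the myoblast determination factor, was covered to 67.7% and 50.2% in control medium and was listed at 0 in both restricted libraries (limma adjusted p = 0.000223, called in 17 of 18 alternatives). Its day 0 cover was 55.1% and 50.1%. Myog, myogenin (chr1:134290004-134292548), was listed at 0 in both day 0 libraries and both restricted libraries and was covered to 70.6% and 73.2% in control medium.

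Notch genes, whose signal holds myoblasts undifferentiated, included some that gain the mark on day 1 in control medium. Of 18 tested members 10 fell and 0 rose (median −20.4 points). Heyl, a Notch target expressed in the muscle lineage, had day 0 cover of 13.4% and 18.3%, control cover of 71.3% and 77.8% and no peak in either restricted library. Dll1, a Notch ligand, had day 0 cover of 5.47% and 9.82%, control cover of 71.5% and 65.6% and restricted cover of 6.19% and 8.59%. Hes1, the classical target, had control cover of 64.0% and 61.4%, day 0 cover of 59.5% and 63.6% and no peak in either restricted library. In control medium Heyl and Dll1 were thus well above their day 0 libraries and under restriction within or below their range, while Hes1 was as covered at day 0 as in control medium.

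Among structural muscle genes many were not yet covered on day 1. Of 50 tested sarcomere genes 23 fell and 0 rose, 46.0% beside 36% of all genes (median −11.8 points; 15 fell without restricted replicate 2), and their median cover was 16.3% and 13.5% in control medium and 0% in both restricted libraries. Synpo2l, a Z-disc protein gene, had control cover of 63.8% and 52.8% and no peak in either restricted library. Tnnt2, cardiac troponin T, which embryonic muscle also makes, went from 62.3% and 50.9% to 0% and 1.79%, a call lost in lists of one length (limma adjusted p = 0.251). Of 20 calcium handling and excitation coupling genes 10 fell and 0 rose. Ryr1, the calcium release channel of the sarcoplasmic reticulum and 122 kb long, had day 0 cover of 3.57% and 6.44%, day 1 control cover of 65.3% and 62.4% and restricted cover of 2.64% and 4.58% (difference −60.2 ± 3.52 points, SE; limma adjusted p = 3.09e-05). Acetylcholine receptor and synapse genes had 6 of 10 members lower. Chrnd and Chrna1, receptor subunits, went from 75.5% and 78.4% to 24.7% and 14.8%, and from 88.6% and 90.03% to 56.4% and 40.4%. In the sarcomere list centring gave 13 lower and 20 higher members and quantile normalisation 17 and 0.

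The lists with the highest shares of rising genes were those of DNA damage and repair, centromere proteins and DNA replication. Of 57 tested DNA damage and repair genes 16 rose and 7 fell, 28.1% higher beside 2.38% of all genes and 3.21% of tested genes of 20 to 50 kb, the members' median length being 34.3 kb. The list's median was 5.99 points. Its counts were 25 higher and 5 lower in lists of one length, but 7 higher and 7 lower of 48 when only peaks with −log10 q of at least 3 were kept (median 1.27 points). Without control replicate 1, 10 members rose and 4 fell. Without control replicate 2 and without restricted replicate 2, 13 rose and 2 fell each time, and without restricted replicate 1, 11 rose and 7 fell. Atr (chr9:95857597-95953217), the replication stress kinase, was covered to 7.45% and 16.7% in control medium and 48.4% and 42.4% under restriction (difference 33.3 ± 9.11 points, SE; limma adjusted p = 0.0206, called in 15 of 19 alternatives with adjusted p from 0.000192 to 0.52). Its day 0 libraries differed widely, at 40.6% and 9.2%. Fancm, a Fanconi anaemia helicase, went from 23.2% and 28.0% to 58.6% and 57.4% (limma adjusted p = 0.00221), and Palb2, the partner of BRCA2, from 24.8% and 31.9% to 57.6% and 61.1% (limma adjusted p = 0.00137, called in 19 of 20 alternatives). Polq, the polymerase of microhomology end joining, went from 21.4% and 25.4% to 54.1% and 53.7% (limma adjusted p = 0.00146). In these 4 genes the replicates lay much closer to each other than the groups did. Day 0 cover was 63.1% and 47.2% in Fancm, 61.3% and 50.9% in Palb2 and 51.7% and 36.6% in Polq, above both control libraries. Among the members that fell was Msh6, a mismatch repair gene, from 66.4% and 71.0% to 55.5% and 44.1% (limma adjusted p = 0.0117, called in 15 of 20 alternatives).

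DNA replication genes split by member. Of 50 tested 8 rose and 4 fell, 16% higher beside 2.38% (median 1.504 points; 14 higher and 1 lower in lists of one length). Fewer rose when any single day 1 library was left out, and without restricted replicate 1 more members fell than rose. Pole, the leading strand polymerase, went from 64.3% and 70.4% to 91.2% and 86.8% (limma adjusted p = 0.00346), and Mcm8, a helicase of recombination repair, from 8.18% and 7.26% to 43.6% and 29.2% (limma adjusted p = 0.00123). Pcna, the short sliding clamp gene, fell from 54.5% and 49.0% to 0% in both restricted libraries. Of 20 centromere protein genes 5 rose and 3 fell. At −log10 q of at least 3 the counts were 1 and 2 of 16. Without control replicate 1, restricted replicate 1 or restricted replicate 2, 3 rose, and without control replicate 2, or restricted replicate 2, 1 fell. Cenpi, of the inner kinetochore, went from 19.98% and 30.9% to 53.6% and 47.2% (limma adjusted p = 0.0436, called in 9 of 20 alternatives). The members that fell, Cenpb, Cenpa and Cenpx, are 2.78, 7.96 and 2.96 kb long. Of those that rose, Cenpq, Cenpk and Cenpi are 13.8, 21.0 and 55.0 kb long. Mitosis genes had 11 of 59 lower and 3 higher, 7 and 1 without restricted replicate 2, 8 and 1 without control replicate 1, and 10 and 0 without restricted replicate 1. Cdc20, the activator of the anaphase-promoting complex, fell from 77.9% and 78.5% to 9.54% and 5.2%, and Melk and Ttk, mitotic kinases, rose from 50.6% and 45.2% to 67.7% and 61.5% and from 49.2% and 61.4% to 78.8% and 75.4%, called in 18 and 17 of 20 alternatives.

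Folate and nucleotide genes also moved both ways. Of 35 tested 4 rose and 6 fell (median −0.443 points), and 2 rose without control replicate 2 or without restricted replicate 1. Shmt1, cytosolic serine hydroxymethyltransferase, which feeds carbon units to folate, went from 19.004% and 16.9% to 50.3% and 42.0% (limma adjusted p = 0.000906, called in 19 of 20 alternatives), with day 0 values of 56.7% and 52.9%. Slc19a1, the reduced folate carrier, went from 54.2% and 49.4% to 64.7% and 64.5% (limma adjusted p = 0.0211, called in 14 of 20 alternatives). Impdh2, of guanine nucleotide synthesis, fell from 100% and 93.8% to 57.0% and 46.3%. Gclm, the regulatory subunit of the first enzyme of glutathione synthesis, rose from 23.7% and 29.6% to 47.8% and 46.7% (limma adjusted p = 0.00445).

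**Figure D5:**
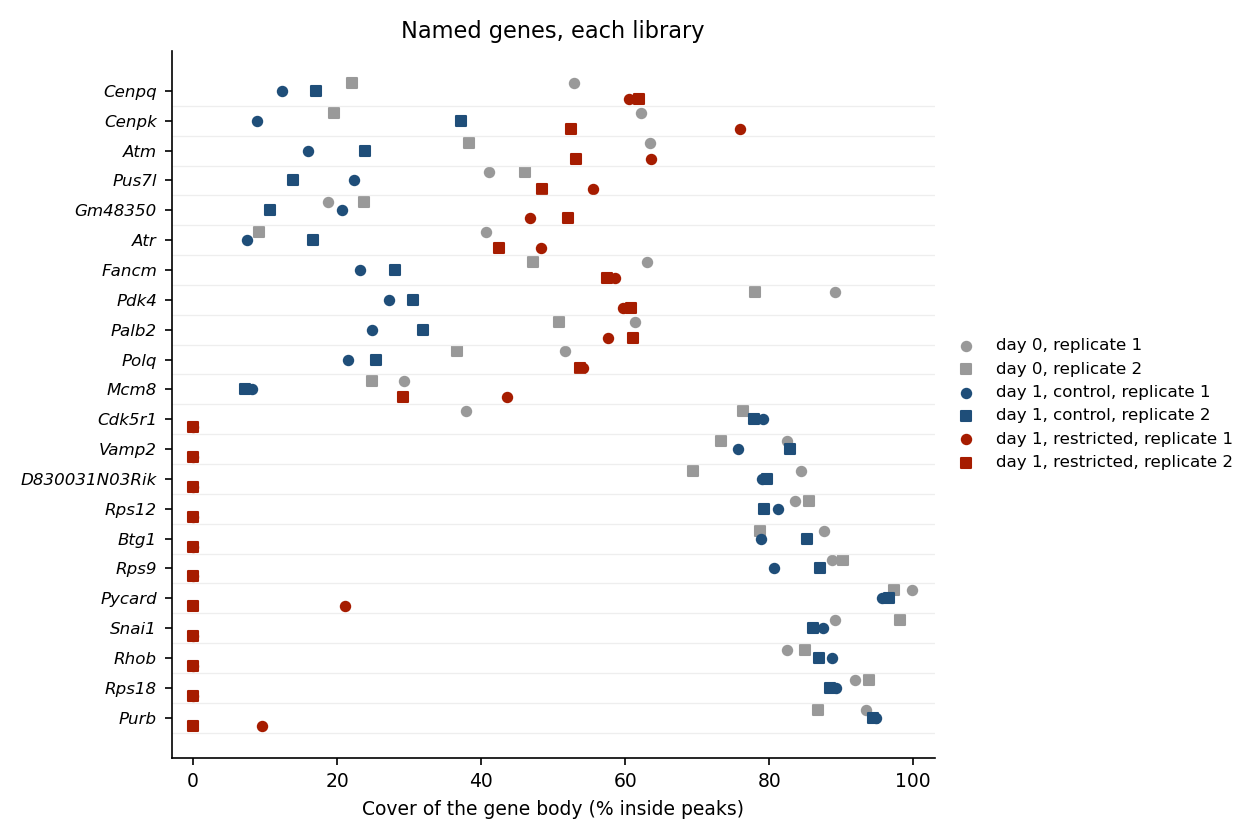
Cover (% of the gene body inside peaks) in each library for genes among the 12 largest rises (top) and the 12 largest drops (bottom) of those also called in lists of one length; grey day 0, blue day 1 control, red day 1 restricted, circles replicate 1 and squares replicate 2. Red and blue do not overlap in any row, because only such genes were eligible. Of all tested genes, 59.6% have both restricted libraries below both control libraries and 10.8% have both above. In several upper genes and in Cdk5r1 the day 0 replicates lie far apart.

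Of the genes plotted by library, Gm48350 and D830031N03Rik lie wholly inside other genes, so their peaks cannot be assigned to them alone. In the longest genes the differences were small in points. Zfhx3, the longest gene that fell at 682 kb, went from 13.8% and 13.7% to 8.26% and 6.16% (limma adjusted p = 0.0266), and Nbas, at 368 kb, rose from 11.5% and 12.2% to 22.1% and 21.2% (limma adjusted p = 0.0202). Zfhx3 was called in 9 of 18 alternatives and Nbas in 13 of 18. By chromosome, from 25.4% of tested genes on chromosome 13 to 44.7% on chromosome 11 fell. By control cover, 3.2% of genes under 10% fell and 62.6% of genes at 75 to 100%.

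Promoters were read to see what the genes that moved together share at their starts. The RefSeq promoter table on GRCm38.p6 gives 300 bases, 250 before and 50 after the start, for 7711 of the 9514 tested genes. The consensus octamers of E2F, the factor family of S phase genes (TTTGGCGC, TTTCCCGC, TTTCGCGC or TTTGCCGC, either strand), occurred in 4.59% of these promoters, in 3.83% of genes that fell and in 10% (19 of 190) of genes that rose. They occurred in 39.0% of promoters of the DNA replication list (16 of 41), 18.6% of the repair list and 2.26% of all 32851 promoters in the table. The cyclic AMP element TGACGTCA occurred in 3.66% of tested genes, 3.57% of those that fell and 10.2% of ribosomal protein genes (5 of 49). The E-box CAGCTG, a MyoD family site, occurred in 14.3% of tested genes, 15.2% of those that fell and 35.7% of sarcomere genes (15 of 42). Median CpG number was 22 in all tested genes and in those that fell. These matches are descriptions of sequence, not of binding.

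Of the named genes, the promoters below show an E2F octamer in 2 genes that rose, the cyclic AMP element in the gene with the largest drop and CAGCTG in 2 receptor genes that fell. Only the motif named for each gene is in capitals, and sequences run 5′ to 3′ on the gene's strand. The promoter of Mcm8, which rose, also holds CAGCTG, left in lower case.
Mcm8 (chr2:132815891-132816190, plus strand), rose: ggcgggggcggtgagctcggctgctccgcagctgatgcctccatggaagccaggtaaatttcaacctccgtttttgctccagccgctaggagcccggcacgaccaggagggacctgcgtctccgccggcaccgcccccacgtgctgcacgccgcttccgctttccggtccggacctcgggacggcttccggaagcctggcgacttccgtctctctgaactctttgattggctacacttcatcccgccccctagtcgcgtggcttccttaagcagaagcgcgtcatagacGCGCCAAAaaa
Kif15, a mitotic kinesin that went from 60.2% and 65.8% to 79.2% and 72.8%, called in 10 of 20 alternatives (chr9:122950831-122951130, plus strand): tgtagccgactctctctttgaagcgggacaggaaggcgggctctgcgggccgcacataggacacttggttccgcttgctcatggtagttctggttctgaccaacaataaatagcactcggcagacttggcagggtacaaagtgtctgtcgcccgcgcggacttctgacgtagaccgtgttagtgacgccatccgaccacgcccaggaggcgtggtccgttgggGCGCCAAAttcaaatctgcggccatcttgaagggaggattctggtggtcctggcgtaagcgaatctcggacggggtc
Purb, a single-strand DNA binding repressor that went from 94.8% and 94.4% to 9.54% and 0% (chr11:6476027-6476326, minus strand): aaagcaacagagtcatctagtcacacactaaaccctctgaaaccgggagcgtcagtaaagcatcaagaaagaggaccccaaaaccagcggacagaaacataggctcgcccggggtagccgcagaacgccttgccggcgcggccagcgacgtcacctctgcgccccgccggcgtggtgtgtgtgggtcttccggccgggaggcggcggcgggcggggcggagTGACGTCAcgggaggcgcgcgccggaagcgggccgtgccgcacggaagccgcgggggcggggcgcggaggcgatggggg
Chrna1 (chr2:73580289-73580588, minus strand), fell: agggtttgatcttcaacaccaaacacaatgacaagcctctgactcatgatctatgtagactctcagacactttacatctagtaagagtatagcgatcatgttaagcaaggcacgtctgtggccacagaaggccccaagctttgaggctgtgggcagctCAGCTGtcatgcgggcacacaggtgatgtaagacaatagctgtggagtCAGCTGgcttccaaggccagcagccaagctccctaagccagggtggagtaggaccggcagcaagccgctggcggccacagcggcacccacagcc
Chrng, the embryonic receptor subunit that went from 26.6% and 30.3% to 0% in both (chr1:87205561-87205860, plus strand): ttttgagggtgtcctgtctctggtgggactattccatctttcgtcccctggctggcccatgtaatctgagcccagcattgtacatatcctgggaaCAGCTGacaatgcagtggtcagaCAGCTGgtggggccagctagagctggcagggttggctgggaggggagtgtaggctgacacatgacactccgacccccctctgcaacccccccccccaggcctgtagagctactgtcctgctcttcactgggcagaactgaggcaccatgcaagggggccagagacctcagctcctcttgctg
The promoters of Chrna1 and Chrng hold 2 CAGCTG each and 7 and 2 CpG, whereas that of Purb holds 39 CpG. In lists of one length Chrng was at 0 in all 4 libraries, so its call there is lost (limma adjusted p = 1, over all alternatives 0.00013 to 1).

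Day 5 restriction, from other libraries, was set beside day 1 to see which genes respond at both stages. At day 5, 3945 genes, or 41.5%, fell and 411, or 4.32%, rose. Of the genes that fell at day 1, 2498 also fell at day 5, which is 73.0% of the day 1 set and 63.3% of the day 5 set. Of the genes that rose, 76 were shared, 33.6% and 18.5% of the sets, and 19 genes were called in opposite directions. The restriction effect itself differed between the days for 495 genes, or 5.2%. In the sarcomere list 26 of 50 members differed, with a median effect of −11.8 points at day 1 and −42.5 points at day 5, and in the calcium list 12 of 20 (−9.49 and −41.7 points). The repair list had a median of 5.99 points at day 1 and 1.68 points at day 5, with 2 members called for a day difference. In Polq cover at day 5 was 0.37% and 1.46% in control medium and 2.12% and 0.813% under restriction, against 21.4% and 25.4%, and 54.1% and 53.7%, on day 1.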

How the data were processed

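H3K36me3 chromatin from C2C12 cells was sequenced, and the authors deposited 1 broad peak list per library on GRCm38, per the submitters' processing notes. The peak caller, its input and the read depth are not given in the sources used here, so no counting interval can be given. In each list the authors' deposited fold enrichment (a ratio) and −log10 q value per peak were used only to rank or filter peaks of that list. The spike-in named in the labels was not used. Groups came from the labels.

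Peaks on chromosomes 1 to 19 and X were merged per library, and the percent of each protein-coding RefSeq gene body (GRCm38.p6) of at least 2 kb inside peaks was computed. limma 3.58.1 in R 4.3.3 (lmFit, eBayes with trend and robust) was fitted to the percent cover of 9514 genes with a mean of at least 5% in the 10 wild-type libraries, in 5 groups of 2, with Benjamini-Hochberg adjustment and a threshold of 0.05. Libraries outside day 1 entered to share the estimate of spread. Python 3.11.15, numpy 2.4.6, pandas 2.3.3, scipy 1.17.1 and matplotlib 3.10.9 did the rest. Single values per library were compared by a two-sided exact permutation test, which cannot go below 0.333 here. Tested on simulated data, the fit recovered 67% of 200 genes changed by 30 points, out of 9514, and called 0 unchanged genes. The simulated replicate deviations cancelled within each group, so unchanged genes could hardly be called and the rate of false calls was not tested. The number of false calls under a list-wide shift, such as the median of −7.99 points at day 1, was not tested either.

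Genes could be named if they were among the 12 largest differences in each direction also called in lists of one covered length, the 3 largest in each direction of a list, the 5 longest called genes in each direction, or one of a few set genes. The comparison, the named-gene rule and the 34 gene lists were chosen with earlier results of these data known. Alternatives were a −log10 q of at least 3, lists of one covered length, centring, other filters, a replicate block, each library left out, and, added after seeing the data, quantile normalisation and some settings for parts of genes. Some genes that the rule names are not reported here.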

Additional observations from a re-analysis of the deposited data

Results flagged for a closer look

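The restriction effect differed between day 1 and day 5 for 495 genes, by a limma contrast of both effects (adjusted p under 0.05). Each value below is the day 5 effect minus the day 1 effect in points of cover, for named genes past that threshold.

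Muscle genes stood at both ends. Chrng differed by −63.4 points: its control cover was 26.6% and 30.3% at day 1 and 90.7% and 92.9% at day 5, and it was listed at 0 in all 4 restricted libraries. Myog differed by −20.7 points, with 70.6% and 73.2% in control medium at day 1, 91.7% and 93.4% at day 5, and 0 in all 4 restricted libraries. Ryr1 differed by 40.0 points, since its restricted cover went from 2.64% and 4.58% at day 1 to 76.7% and 75.6% at day 5. Cacnb1, a calcium channel subunit, differed by 33.6 points, with restricted cover of 34.2% and 39.0% at day 1 and 72.2% and 73.9% at day 5. The Notch genes Dll1 and Heyl differed by 43.6 and 30.8 points.

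In several genes the day 5 control cover was itself low. Igfbp2, which binds insulin-like growth factors, differed by 49.0 points, with control cover of 75.6% and 81.3% at day 1 and 8.09% and 1.94% at day 5. Spc24, a kinetochore gene, differed by 25.7 points and had day 5 control cover of 0% and 9.71%. Polq and Shmt1, which rose at day 1, differed by −29.9 and −29.5 points, and Shmt1 had day 5 cover of 13.4% and 16.8% in control medium and 15.8% and 11.6% under restriction.

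Of the others, Phf1, a reader of H3K36 methylation, differed by 40.1 points, Pcna by 32.8, Rps12 by 30.6, the chaperone Hspa8 by 28.4, the collagen Col18a1 by 27.9, Impdh2 by 25.6 and Zfp36, an RNA-binding immediate early gene, by 18.8 points.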

How the results depend on the processing

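The depth of these libraries is unknown and each group has 2, so list length and gene cover cannot be told apart from sequencing depth. The number of genes called at day 1, 3648, was 2291 in lists of one covered length and 2323 among genes without overlap; these are counts of separate fits, not subsets. The 3422 lower genes became 1614 in lists of one length, 1245 after centring, 2176 without overlap and 1537 after quantile normalisation. The 226 higher genes became 132 at −log10 q of at least 3, 677 in lists of one length, 3518 after centring, 147 without overlap and 2255 after quantile normalisation. The 495 genes with a day difference became 188 at a mean cover of at least 20% and 263 without overlap. Lower calls in the 5′ part (1426) became 901 at −log10 q of at least 3 and 567 in lists of one length. Those in the 3′ part (1746) became 927 in lists of one length and 666 with only the 4 day 1 libraries. The difference in marked genes, −1667.5, became −922.5 in lists of one length, −1308 at 25% cover and −1048.5 at 75%. The 5′ shift of 2.56 kb became 1.25 kb in lists of one length. The cause of these moves was not tested.

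Leaving out each library in turn gave 2356 to 3994 called genes, 2178 to 3660 lower, 71 to 339 higher, 215 to 647 with a day difference, 772 to 1158 lower in the 5′ part, 947 to 2104 lower in the 3′ part, a marked gene difference of −1985.5 to −1349.5, and a 5′ shift of 2.4 to 2.71 kb.

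The sign reversed after centring for Dst (4.81 points), Pakap (8.48), Stard13 (8.19) and Zfhx3 (8.60), after quantile normalisation for Dst (5.15), Pakap (0.0511) and Zfhx3 (0.170), and in lists of one length for Mri1 (7.11) and Pakap (0.274). Of the named genes with a value there, 35 of 140 lost their call at −log10 q of at least 3 and 34 of 143 in lists of one length. With a replicate block 3436 genes were called, 3246 lower and 190 higher, and 399 differed between days. The labels do not say whether same-numbered libraries are paired. Across genes the deviations of same-numbered day 1 libraries correlated at −0.0208, and those of day 0 and day 1 control libraries at −0.439. Such correlations cannot settle the pairing.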

Other observations

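Of 20 tested insulin-like growth factor genes 13 fell and 1 rose (median −14.8 points); 0 rose without control replicate 1, control replicate 2 or restricted replicate 1. Igfbp5, a binding protein of the muscle lineage, was covered to 86.2% and 86.1% in control medium and 34.2% and 32.0% under restriction. Of 26 tested p53 targets 14 fell and 0 rose (median −14.9 points), and 8 fell without control replicate 2 and 9 without restricted replicate 2. Among the 14 was Bax, a cell death effector, from 78.2% and 84.1% to 26.6% and 15.9%. Vamp2, a vesicle fusion protein, and Cdk5r1, an activator of CDK5, were covered to 75.7% and 82.8%, and to 79.1% and 77.9%, in control medium, and both were listed at 0 in both restricted libraries. Of 277 tested zinc finger protein genes 55 fell and 8 rose, 19.9% lower beside 36% of all genes (median −3.70 points). Without control replicate 2 and restricted replicate 2 the lower members were 31 and 27, and without control replicate 1, restricted replicate 1 and restricted replicate 2 the higher members were 0, 2 and 1.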
